A study of Mus musculus with 16 samples.

Results

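A set of 10 genes of tendon and cartilage matrix was followed in mouse tibialis anterior, a fast muscle at the front of the lower leg, in cancer cachexia, a loss of muscle and fat seen with many cancers. They were taken as a fixed list of symbols, and 10 of the 10 had a row among the 12021 genes of the expression table. The list was chosen with earlier results of these data known, so shares of members set beside shares of all genes are descriptions, not independent tests. Libraries came from ribosome-depleted total RNA of snap-frozen muscle, 16 in all, in 8 groups of 2. KPP cachectic and KPP control mice were C57BL/6J, KPC cachectic and KPC control mice were of a mixed strain, C26 cachectic and C26 control mice were CD2F1, and LLC cachectic and LLC control mice were C57BL/6J. The labels give no genotype, tumour dose, treatment, age or stage of disease, and do not say that the 2 libraries of a group are separate animals. The p-values therefore measure only the spread between these libraries, which may be technical. Each model had controls of its own, so no 2 models share a library, but model and strain cannot be told apart except between KPP and LLC, which carry the same strain label.

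Tendon joins muscle to bone through parallel collagen fibrils, and a fibroblast-like cell, the tenocyte, makes both the collagens and the smaller proteins that set fibril width and spacing. Scleraxis (Scx) is the transcription factor that marks tendon progenitors and tenocytes, and tenomodulin (Tnmd) is a membrane glycoprotein of mature tenocytes that lies downstream of it. Keratocan (Kera) and fibromodulin (Fmod) are small leucine-rich proteoglycans that bind collagen fibrils, and chondroadherin (Chad) is a related leucine-rich protein of cartilage that binds collagen and integrins. Cartilage oligomeric matrix protein (Comp) and thrombospondin 4 (Thbs4) belong to the thrombospondin family and bridge collagens and other matrix proteins. Cilp and Cilp2 encode cartilage intermediate layer proteins, and Prg4 encodes lubricin, which coats joint and tendon surfaces. In a muscle sample such transcripts can come from tendon, from the connective tissue sheaths and from the junction of muscle fibres with tendon.

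A level is given in CPM, the reads of a gene per 1000000 reads of all listed genes, and a change as the log2 difference, cachectic minus control, ± its SE (n = 2 libraries per group). Changes were tested with limma in 1 fit over the 16 libraries. Every adjusted p is a Benjamini-Hochberg value taken over 12021 genes, and a gene was called where it was under 0.05. Libraries held 28584279 to 46972882 reads. The members had between 9 and 10252 reads in a library. Per kilobase of annotated exon the members' geometric mean over the 16 libraries was highest for Thbs4 (32.0 CPM per kilobase) and Fmod (19.7), then Cilp (7.50), Tnmd (2.65) and Comp (2.61). Kera (1.74), Chad (1.55), Scx (1.51), Prg4 (1.15) and Cilp2 (1.13) were lowest. The labelled tissue was checked against fast fibre markers: 11 of 11 were measured, and their sum was 102917 to 137318 CPM in cachectic and 122223 to 132710 CPM in control libraries. The cachectic pairs of KPC and LLC differed most between their libraries: the median gene differed by 0.30 and 0.31 on the log2 scale, against 0.17 in KPP cachectic, 0.18 in C26 cachectic and 0.11 to 0.15 in the control pairs.

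On average over the 4 models 7 members, Tnmd, Kera, Chad, Cilp2, Fmod, Comp and Thbs4, fell in cachectic muscle. Tnmd, Cilp2, Kera and Chad had the largest changes of the 10, -2.73 ± 0.36, -2.70 ± 0.33, -2.69 ± 0.41 and -2.56 ± 0.37 on the log2 scale, which left them at 0.151, 0.153, 0.155 and 0.169 of the control level (adjusted p = 0.000545, 0.000394, 0.000945 and 0.000736). Cilp (-0.19 ± 0.17), Prg4 (0.11 ± 0.19) and Scx (-0.16 ± 0.22) did not pass for the mean (adjusted p = 0.376, 0.667 and 0.576). In all, 7 of 10 members fell and 0 rose for the mean, where 13.8% of all genes fell and 27.3% rose. The median change of the 10 was -1.18, beside 0.10 for all genes. With any 1 library left out, the mean change of each of the 7 that fell stayed below 0. It ran from -1.54 to -0.78 for Comp and from -0.82 to -0.51 for Thbs4. The call of Comp was lost without KPP cachectic 2, KPC cachectic 1 or LLC control 2.

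**Figure D1:**
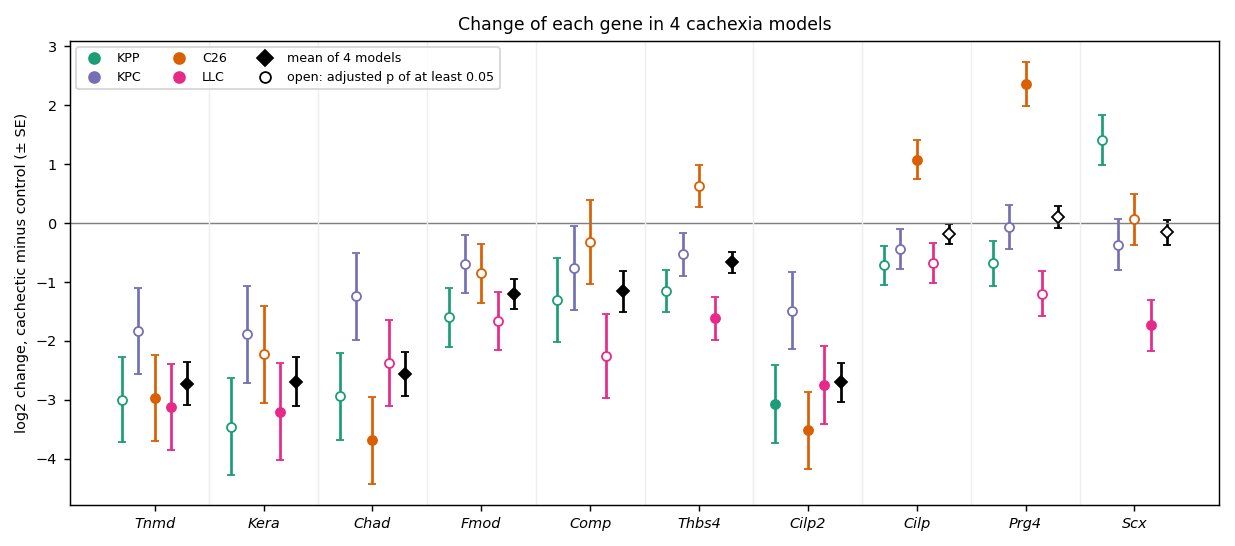
Log2 change (cachectic minus control, y axis) of each gene (x axis) in the 4 models and for their mean, with bars of 1 SE; filled marks passed an adjusted p of 0.05. Tnmd, Kera, Chad and Cilp2 lie below 0 in all 4 models, whereas Thbs4, Cilp and Prg4 lie above 0 in C26 and Scx lies above 0 in KPP.

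Within single models fewer members passed. In LLC 5 of 10 fell (Tnmd, Kera, Cilp2, Thbs4 and Scx) and 0 rose, where 3.66% of all genes fell and 3.42% rose. The count moved with that of all genes: without LLC cachectic 2 it was 10 and 30.9% of all genes were called in either direction, against 7.08% with every library. It was 0 without LLC cachectic 1, LLC control 1 or LLC control 2, where 0.574%, 0.641% and 0.025% of all genes were called. It was 1 without KPP control 1, 2 without KPP control 2 or without either C26 control, and 3 without either KPC control, with 2.94% to 3.44% of all genes called in these fits. In C26 3 of 10 fell (Tnmd, Chad and Cilp2), where 5.12% of all genes fell, and 2 rose (Cilp and Prg4), where 23.2% did. The C26 count of 5 became 1 without C26 control 1, 2 without C26 control 2 and 3 without either C26 cachectic library, where 1.59%, 4.46%, 10.7% and 5.96% of all genes were called, against 28.4% with every library. In KPP only Cilp2 fell, 1 of 10 where 1.07% of all genes fell, and 0 rose, where 0.707% did. That call was lost without any 1 KPP library, without either KPC control, without any 1 C26 library and without either LLC control, in fits that called 0.0666% to 0.982% of all genes, against 1.78% with every library. The count was 6 without either KPC cachectic library or either LLC cachectic library, and these fits called 6.32% to 8.67% of all genes. In KPC 0 of 10 passed in limma, 3 of 10 had an unadjusted p under 0.05, and 0% of all genes were called (1035 had an unadjusted p under 0.05, and 1 was called with voom weights). Without KPC cachectic 2, 2 members passed in KPC, Cilp2 and Tnmd, and 7.89% of all genes did.

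Whether both cachectic libraries lay on 1 side of both controls was counted as well, which needs no model of the spread. In LLC 10 of 10 members lay below, where 23.6% of all genes did, and 0 lay above (33.8%). In KPP 8 of 10 lay below (29.7% of all genes), and 1, Scx, lay above (28.9%). In C26 5 of 10 lay below (16.9%) and 3, Cilp, Prg4 and Thbs4, lay above, where 59.6% of all genes did. In KPC 4 of 10 lay below, Tnmd, Kera, Cilp and Comp, where 22% of all genes did, and 0 lay above (15.8%). Tnmd and Kera lay below in all 4 models, as 4.08% of all genes did, and 0 members lay above in all 4 (4.08%). For these 2 genes all 8 cachectic libraries lay below all 8 controls, which held for 0.79% of all genes.

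Tnmd, the marker of mature tenocytes, was one of the 2 members whose groups were apart in every model. Its level was 1.83 and 0.535 CPM in KPP cachectic muscle against 9.32 and 6.89 in KPP controls, and 1.01 and 4.64 in KPC cachectic muscle against 8.29 and 7.18 in KPC controls. In C26 it was 1.60 and 1.77 in cachectic muscle against 9.79 and 18.0 in controls, and in LLC 0.495 and 2.00 in cachectic muscle against 9.21 and 8.29 in controls. The highest cachectic library, KPC cachectic 2, thus stayed below the lowest control, KPP control 2. Tnmd fell by 2.97 ± 0.73 in C26 (adjusted p = 0.0155) and by 3.12 ± 0.73 in LLC (adjusted p = 0.0325), was -2.99 ± 0.73 in KPP (adjusted p = 0.0556) and -1.82 ± 0.73 in KPC (adjusted p = 0.566). The C26 call was lost without any 1 C26 library, and the LLC call without LLC cachectic 1, either LLC control or KPP control 1. Tnmd lies on chromosome X between 133850980 and 133865577 (GRCm38, plus strand, 7 exon blocks). Because bulk RNA was measured, fewer tendon cells and less RNA per cell cannot be told apart here or for any other member.

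Kera had 0.724 and 0.669 CPM in KPP cachectic muscle against 10.5 and 5.74 in KPP controls, and 1.17 and 4.10 in KPC cachectic muscle against 8.29 and 7.95 in KPC controls. In C26 it had 5.52 and 2.24 in cachectic muscle against 11.3 and 24.2 in controls, and in LLC 0.353 and 3.09 in cachectic muscle against 9.87 and 9.65 in controls. The groups did not overlap in any model, but the 2 LLC cachectic libraries differed by 3.09 on the log2 scale. Kera fell in LLC (-3.20 ± 0.82, adjusted p = 0.0411), a call that held in 5 of the 16 fits that leave out 1 library. The change was -3.46 ± 0.82 in KPP (adjusted p = 0.0538), -2.22 ± 0.82 in C26 (adjusted p = 0.0591) and -1.88 ± 0.82 in KPC (adjusted p = 0.576). Kera lies on chromosome 10 between 97606879 and 97613692 (plus strand, 3 exon blocks).

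Chad, on chromosome 11 between 94565047 and 94569127 (plus strand), had the lowest reads of any member in a single library (9), though its median of 145.5 reads over the 16 libraries was above those of Prg4 (139) and Scx (121.5). It had 1.09 and 0.301 CPM in KPP cachectic muscle against 4.68 and 4.37 in KPP controls, and 0.713 and 0.902 in C26 cachectic muscle against 9.66 and 11.4 in C26 controls. In LLC the values were 0.447 and 1.86 in cachectic muscle against 4.95 and 4.64 in controls. In KPC the groups overlapped, since 1 cachectic library was at 1.35 and the other at 6.37, against 8.66 and 5.63 in KPC controls. Chad fell in C26 (-3.69 ± 0.73, adjusted p = 0.00763), a call lost without either C26 control. It was -2.94 ± 0.73 in KPP (adjusted p = 0.0578), -2.37 ± 0.73 in LLC (adjusted p = 0.0652) and -1.24 ± 0.73 in KPC (adjusted p = 0.621). The gene lies inside Acsf2, a gene on the opposite strand, with no shared exon. Acsf2 itself changed by 0.17 to 0.42 in the 4 models and passed in none of them. How strand was handled in counting is not given in the sources used here.

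Fmod, which regulates the growth of collagen fibrils, fell for the mean of the models. It had 43.0 and 15.1 CPM in KPP cachectic muscle against 75.3 and 79.4 in KPP controls, and 20.7 and 53.0 in LLC cachectic muscle against 109 and 101 in LLC controls. In C26 it had 82.6 and 81.4 in cachectic muscle against 139 and 159 in controls, and in KPC 32.2 and 73.3 in cachectic muscle against 95.3 and 65.1 in controls. Only the KPC groups overlapped. Its mean change was -1.20 ± 0.25 (adjusted p = 0.00341), and this call held in all 16 fits that leave out 1 library. In single models it was -1.66 ± 0.49 in LLC (adjusted p = 0.0592), -1.60 ± 0.49 in KPP (adjusted p = 0.0972), -0.85 ± 0.49 in C26 (adjusted p = 0.195) and -0.70 ± 0.49 in KPC (adjusted p = 0.671). The gene lies on chromosome 1 between 134037254 and 134048277 (plus strand).

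**Figure D2:**
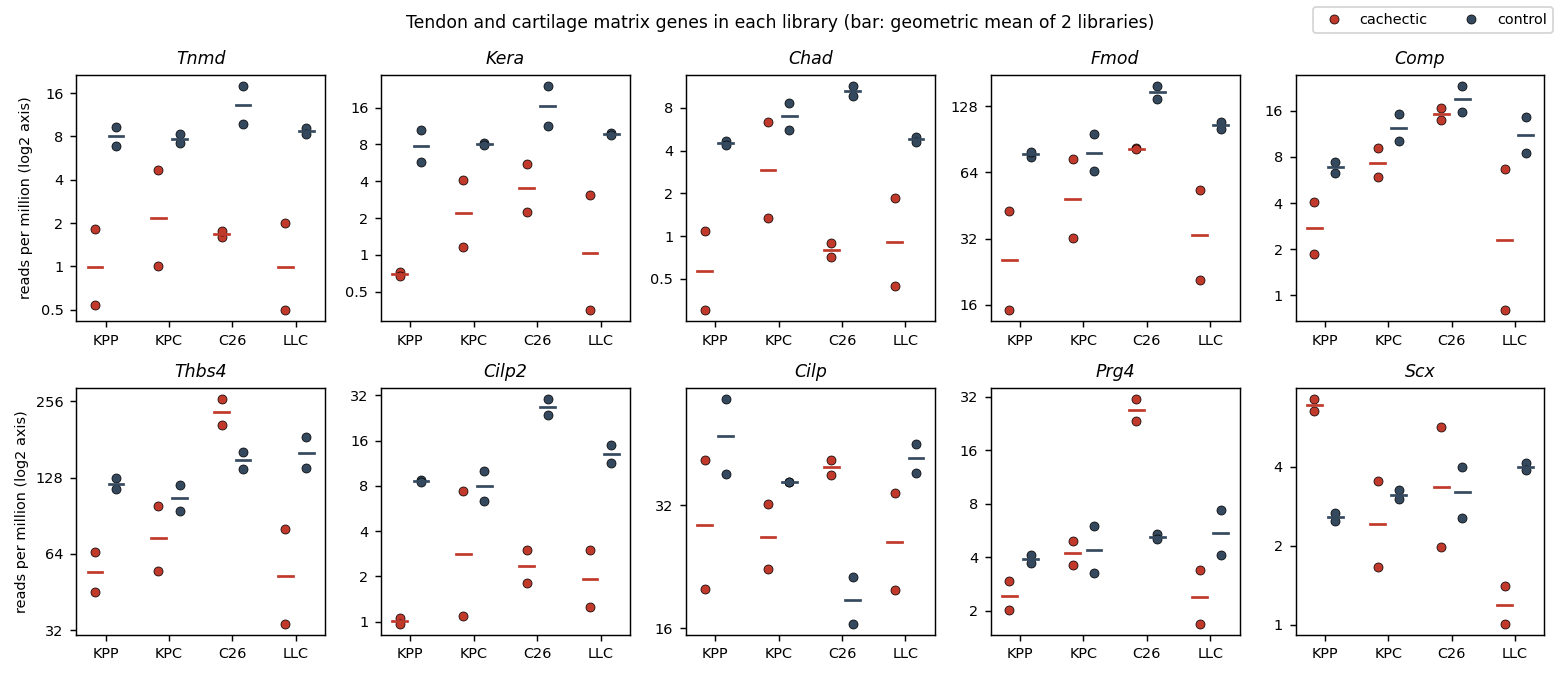
CPM (y axis, log2 scale) of the 10 genes in each of the 16 libraries, cachectic (red) left of control (blue) within each model, with a bar at the geometric mean of the 2 libraries. Tnmd and Kera show no cachectic library above any control, while Prg4 stands highest in the 2 C26 cachectic libraries at 31.1 and 23.4.

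Both thrombospondins fell for the mean of the models. Thbs4 had 34.1 and 80.4 CPM in LLC cachectic muscle against 139 and 185 in LLC controls, and 65.3 and 45.4 in KPP cachectic muscle against 115 and 127 in KPP controls. In C26 it had 261 and 205 in cachectic muscle against 139 and 161 in controls. This was the only model in which both cachectic libraries were above both controls, as they were for 59.6% of all genes in C26. In KPC the values of 55.0 and 99.2 in cachectic muscle overlapped those of 120 and 94.7 in controls. Thbs4 fell in LLC (-1.62 ± 0.36, adjusted p = 0.0281), a call lost without LLC cachectic 1 or either LLC control, and was 0.63 ± 0.36 in C26 (adjusted p = 0.19) and -0.53 ± 0.36 in KPC (adjusted p = 0.657). In KPP it was -1.15 ± 0.36 (adjusted p = 0.0997). After centring each library on its median, the C26 change was 0.39 (adjusted p = 0.505). The C26 minus LLC difference of Thbs4 was 2.25 ± 0.51 (adjusted p = 0.0919). For the mean it fell by 0.67 ± 0.18 (adjusted p = 0.0121), a call that was lost with LLC left out of the mean (-0.35, adjusted p = 0.21) or with KPP left out (-0.51, adjusted p = 0.0698). Thbs4 lies on chromosome 13 between 92751590 and 92794818 (minus strand, 22 exon blocks).

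Comp had 0.801 and 6.66 CPM in LLC cachectic muscle against 8.53 and 14.4 in LLC controls, and 4.09 and 1.87 in KPP cachectic muscle against 6.29 and 7.45 in KPP controls. In KPC it had 5.89 and 9.09 in cachectic muscle against 15.2 and 10.1 in controls, and in C26 13.9 and 16.5 in cachectic muscle against 15.6 and 23.3 in controls. Groups overlapped in C26 alone. The change was -2.25 ± 0.71 in LLC (adjusted p = 0.0686), -1.30 ± 0.71 in KPP (adjusted p = 0.317), -0.76 ± 0.71 in KPC (adjusted p = 0.742) and -0.32 ± 0.71 in C26 (adjusted p = 0.739). LLC cachectic 1 and 2 differed by 3.04 on the log2 scale for this gene, so its SE rests on a spread smaller than the LLC pair showed. For the mean Comp fell by 1.16 ± 0.35 (adjusted p = 0.0213), and was -0.79 with LLC left out (adjusted p = 0.154).

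Cilp2 and Cilp encode related proteins. Cilp2 fell in 3 models, and Cilp rose in 1. Cilp2 had 1.06 and 0.970 CPM in KPP cachectic muscle against 8.74 and 8.54 in KPP controls, and 1.81 and 3.01 in C26 cachectic muscle against 23.7 and 30.3 in C26 controls. In LLC it had 1.25 and 2.98 in cachectic muscle against 14.97 and 11.3 in controls, and in KPC 1.09 and 7.36 in cachectic muscle against 10.01 and 6.35 in controls. Groups overlapped in KPC alone, where KPC cachectic 2 lay within the control range. Cilp2 fell in KPP (-3.07 ± 0.66, adjusted p = 0.0447), C26 (-3.51 ± 0.66, adjusted p = 0.00609) and LLC (-2.75 ± 0.66, adjusted p = 0.0337). The C26 call was lost only without C26 control 1, and the LLC call held in 9 of the 16 fits that leave out 1 library. In KPC the change was -1.49 ± 0.66 (adjusted p = 0.576). Cilp2 lies on chromosome 8 between 69880369 and 69887687 (minus strand).

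Cilp had 41.3 and 37.9 CPM in C26 cachectic muscle against 16.4 and 21.4 in C26 controls. In KPP it had 41.2 and 19.9 in cachectic muscle against 38.2 and 58.1 in controls, in KPC 22.3 and 32.2 against 36.5 and 36.4, and in LLC 19.8 and 34.2 against 45.1 and 38.4. C26 was the only model in which the cachectic libraries were the higher ones, and C26 control 1 was the lowest of the 16 libraries for this gene. Cilp rose in C26 (1.08 ± 0.34, adjusted p = 0.0341), but centring each library on its median ended that call (0.84, adjusted p = 0.11), as did leaving out any 1 C26 library. The median of all genes was 0.28 higher in C26 cachectic than in C26 control muscle. In KPP, KPC and LLC the change of Cilp was -0.72, -0.44 and -0.68, each ± 0.34 (adjusted p = 0.246, 0.687 and 0.195). Its F test of differences between models did not pass (adjusted p = 0.183).

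Prg4 had the smallest p of the 10 in the test of differences between models. It had 31.1 and 23.4 CPM in C26 cachectic muscle against 5.42 and 5.05 in C26 controls, and no other library exceeded 7.34. In LLC it had 1.70 and 3.37 in cachectic muscle against 4.11 and 7.34 in controls, in KPP 2.94 and 2.01 against 3.70 and 4.13, and in KPC 3.61 and 4.93 against 5.98 and 3.25. Prg4 rose in C26 by 2.36 ± 0.38 (adjusted p = 0.00383), and this call held after centring (2.13, adjusted p = 0.00795) and in all 16 fits that leave out 1 library. It was -1.20 ± 0.38 in LLC (adjusted p = 0.0684), -0.68 ± 0.38 in KPP (adjusted p = 0.321) and -0.06 ± 0.38 in KPC (adjusted p = 0.97). The effects themselves differed between KPP and C26 (KPP minus C26 -3.05 ± 0.53, adjusted p = 0.0347) and between C26 and LLC (C26 minus LLC 3.56 ± 0.53, adjusted p = 0.0245). Both differences missed the threshold after centring (adjusted p = 0.066 and 0.0609) and in 10 of the 16 fits that leave out 1 library. The share of all genes called was 0.299% for KPP minus C26 and 0.116% for C26 minus LLC. In the F test over the 4 models Prg4 had adjusted p = 0.0599, and 0 of 10 members passed in limma, where 0.116% of all genes did (4 of 10 had an unadjusted p under 0.05). Prg4 lies on chromosome 1 between 150449412 and 150466165 (minus strand), and 204 bases of its annotated exons are shared with Tpr, on the opposite strand. Tpr rose by 0.75 ± 0.24 in C26 (adjusted p = 0.0385), with 339.9 and 333 CPM in cachectic muscle against 200.2 and 200.2 in controls. Its part in the Prg4 reads was not tested.

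Scx, the transcription factor, fell in LLC only among the models, while both of its KPP cachectic libraries were above both controls. It had 6.51 and 7.23 CPM in KPP cachectic muscle against 2.48 and 2.66 in KPP controls, and 1.01 and 1.41 in LLC cachectic muscle against 4.14 and 3.87 in LLC controls. In KPC it had 3.53 and 1.67 in cachectic muscle against 3.26 and 3.0 in controls, and in C26 5.65 and 1.97 against 2.56 and 4.00. The groups were apart in KPP and LLC, in opposite directions, and overlapped in KPC and C26. Scx fell in LLC (-1.74 ± 0.43, adjusted p = 0.0384), a call that held in 7 of the 16 fits that leave out 1 library. Its change was 1.41 ± 0.43 in KPP (adjusted p = 0.095), -0.36 ± 0.43 in KPC (adjusted p = 0.806) and 0.06 ± 0.43 in C26 (adjusted p = 0.917), a C26 value that was -0.17 after centring. The KPP minus LLC difference, between models with 1 strain label, was 3.15 ± 0.61 and did not pass over all genes (adjusted p = 0.119), of which 0.0333% did. Scx lies on chromosome 15 between 76457452 and 76459458 (plus strand), inside Bop1 on the opposite strand, with no shared exon. Bop1 had 17.5 and 18.8 CPM in KPP cachectic muscle against 15.3 and 16.97 in KPP controls, and 23.5 and 15.1 in LLC cachectic muscle against 17.9 and 14.97 in LLC controls. The change of Bop1 was 0.18 ± 0.20 in KPP and 0.21 ± 0.20 in LLC (adjusted p = 0.657 and 0.498), and their part in the Scx counts was not tested.

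In 3 cachectic groups the 2 libraries differed across most members at once. In LLC cachectic muscle 10 of 10 members were lower in library 1, by a median of 1.30 on the log2 scale, where 42.5% of all genes were lower in library 1. Library 1 was also the lower in KPC cachectic muscle for 9 of 10 members, all but Scx, with a median difference of 1.13 (36.3% of all genes), and the higher in KPP cachectic muscle for 9 of 10, again all but Scx, with a median of 0.79 (45.6% of all genes were lower in library 1). C26 cachectic muscle showed no such ordering (4 of 10 lower in library 1, as 45.5% of all genes were, median difference 0.34). Control pairs differed by medians of 0.15 to 0.45, with 0 of 10 members lower in KPC control 1, where 51.3% of all genes were, and 9 of 10 lower in C26 control 1, where 53.8% were. The summed level of the 10 genes was 168 and 94.1 CPM in KPP cachectic muscle against 275 and 304 in KPP controls, and 127 and 243 in KPC cachectic muscle against 312 and 240 in KPC controls. In C26 the sum was 445 and 375 in cachectic muscle against 372 and 458 in controls, and in LLC 80.6 and 189 against 349 and 384. KPC cachectic 2 held a mitochondrial share of reads of 12.3%, against 8.30% in KPC cachectic 1 and 11.1% and 11.4% in KPC controls (5.73% to 12.3% in all cachectic and 9.10% to 13.0% in all control libraries). Its part in the member values was not tested. With KPC cachectic 2 and LLC cachectic 1 both left out, a setting chosen after the data were seen, the counts of members called were 8 in KPP, 5 in KPC, 3 in LLC and 7 for the mean. The same fit called 18.4% of all genes in KPP, 21.7% in KPC, 6.97% in LLC and 51.7% for the mean, so in KPP and KPC the calls increased over all genes as well.

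**Figure D3:**
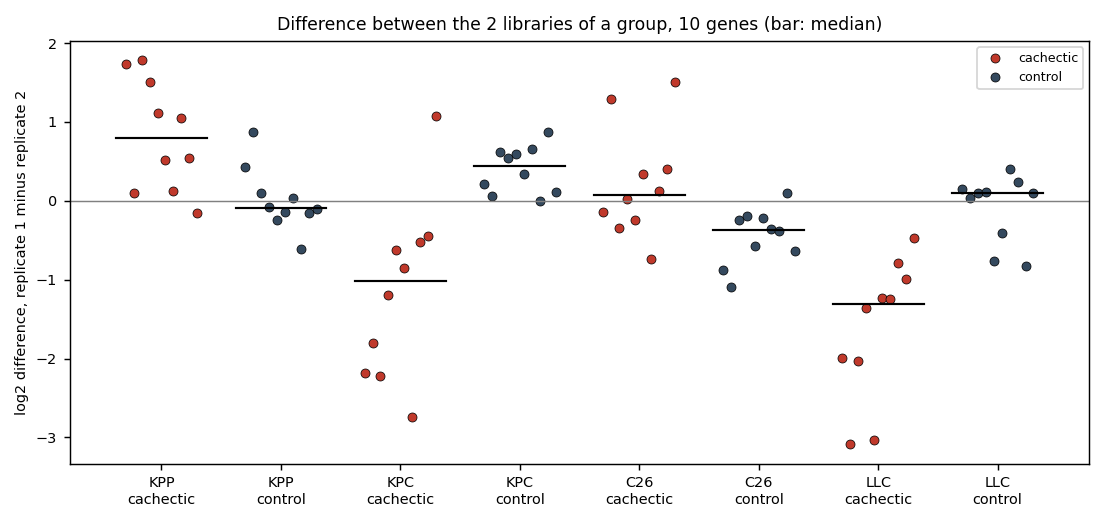
Log2 difference between replicate 1 and replicate 2 (y axis) for the 10 genes in each group (x axis, cachectic left of control), with a bar at the median; within a group the points run in the order Tnmd, Kera, Chad, Fmod, Comp, Thbs4, Cilp2, Cilp, Prg4, Scx. All 10 points lie below 0 in LLC cachectic muscle and 9 of 10 lie below 0 in KPC cachectic muscle.

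After each group's mean was removed, the members still moved together from library to library, apart from Scx. Over the 16 libraries (8 pairs, so 8 independent differences) the 45 pairs of members had a median Pearson r of 0.72. Chad with Fmod (0.98) and Chad with Tnmd (0.97) were the closest. Scx had a median r of 0.05 with the other 9 and reached -0.48 with Cilp2. Cilp had a median within-group r of 0.72 with the other 9, up to 0.88 with Fmod. These values are descriptions, and the genes share the same libraries, totals and dissections.

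The genes outside the list whose levels were most like the members' included several matrix genes. Likeness was the Pearson r over 16 libraries with the mean of the 10 standardised members, and group means contribute to it. The 8 closest were Clec11a (0.96), Mfap5 (0.95), Lpar1 (0.95), Col11a1 (0.95), Steap3 (0.95), Wif1 (0.95), Thy1 (0.94) and Col5a2 (0.94). Col11a1 encodes a fibril-forming collagen of cartilage and tendon, Mfap5 a microfibril glycoprotein, Wif1 a secreted inhibitor of Wnt signalling and Thy1 a surface protein of fibroblasts. Among single members, Tnmd was closest to Ndufa8 (0.96) and Col12a1 (0.96), a collagen of fibril surfaces, Kera to Ssc5d (0.96) and Col1a2 (0.96), and Cilp2 to 4632428C04Rik (0.96) and Col1a1 (0.96). Prg4 was closest to Sod3 (0.96), the extracellular superoxide dismutase, and Rpn2 (0.94). Comp was closest to fibronectin, Fn1 (0.94), and Timp2 (0.92), Thbs4 to Loxl3 (0.93) and Dnm1 (0.93), and Fmod to Ret (0.96) and Clec11a (0.95). Chad was closest to Grb14 (0.96) and Tnmd (0.95). The nearest genes to Scx and Cilp were less near: Srpk3 (0.87) and Aldh1l2 (0.87) for Scx, and Itga6 (0.81) and Gramd3 (0.75) for Cilp.

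Levels in control muscle were set side by side as well. Both C26 controls were above the other 6 controls for 6 of 10 members, Tnmd, Kera, Chad, Cilp2, Fmod and Comp, where 13.9% of all genes were, and below them for 1, Cilp, where 14.2% were. Cilp2 had a geometric mean of 26.8 CPM in C26 controls, 13.0 in LLC controls, 8.65 in KPP controls and 7.98 in KPC controls. The step from LLC to C26 controls did not overlap, nor that from KPP to LLC controls, while KPP and KPC controls overlapped. For Tnmd the C26 controls had 13.3, apart from LLC controls with 8.76, KPP controls with 8.03 and KPC controls with 7.72, and the last 3 overlapped their neighbours. Among cachectic groups the Tnmd means of 2.18 in KPC, 1.70 in C26, 1.01 in LLC and 1.01 in KPP overlapped their neighbours throughout. For Prg4 the C26 cachectic mean of 27.0 stood apart from LLC controls, the next group, with 5.51. For Scx the KPP cachectic mean of 6.88 stood apart from LLC controls, the next group, with 4.02, and LLC cachectic muscle stood apart at the low end with 1.21.

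Other genes of tendon fibrils fell beside the members. Of 14 measured, 9 fell and 1 rose for the mean of the models (median -1.10), where 13.8% of all genes fell and 27.3% rose. In LLC 8 fell and 0 rose (3.66% and 3.42% of all genes), and in C26 5 fell and 1 rose (5.12% and 23.2%). In KPP 4 fell and 0 rose (1.07% and 0.707%), and in KPC 0 passed, as for all genes. Col1a2 and Col1a1, the chains of the main tendon collagen, fell for the mean (-2.37 ± 0.27, adjusted p = 0.000378, and -3.08 ± 0.37, adjusted p = 0.000394). Loxl2, a crosslinking enzyme, fell for the mean (-1.10 ± 0.13), and Lox, another, rose for the mean (0.69 ± 0.20, adjusted p = 0.0163). Among single models Lox rose in C26 only (1.62 ± 0.40, adjusted p = 0.0154). Of 8 other small leucine-rich proteoglycans, 3 fell for the mean: Aspn (-0.61 ± 0.09), Ecm2 (-0.51 ± 0.10) and Lum (-0.74 ± 0.20). The median of that list was -0.23. Of 3 other thrombospondins 0 fell, and Thbs1 rose for the mean (0.39 ± 0.15, adjusted p = 0.0471). With 13.8% of all genes lower and 27.3% higher for the mean, nothing is read from counts over so few genes.

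Of 14 measured genes of tendon transcription and TGF-beta signalling, a pathway that maintains tenocytes, 1 fell and 3 rose for the mean, with a median of 0.04 against 0.10 for all genes. Neither count is above the share of all genes, of which 13.8% fell and 27.3% rose, so nothing about the pathway is read from them. The receptors Tgfbr3 (0.63 ± 0.11), Tgfbr2 (0.51 ± 0.10) and Tgfbr1 (0.40 ± 0.10) rose for the mean. Smad3, which carries the signal to the nucleus, fell for the mean (-0.46 ± 0.12, adjusted p = 0.00882). Among single models the 3 receptors passed in C26 alone (0.94, 1.10 and 0.79), where 23.2% of all genes rose, and were above 0 in the other models. Smad3 was 0.38 ± 0.23 in C26 (adjusted p = 0.218). In LLC Smad3 fell by 1.22 ± 0.23 (adjusted p = 0.0171), and in KPP Tgfb1, a ligand, was -0.61 ± 0.18 (adjusted p = 0.0831). On the muscle side of the myotendinous junction, 4 of 12 genes fell and 3 rose for the mean, and the count that rose is near the share of all genes (27.3%). Col22a1, the collagen of that junction, fell in KPP (-1.32 ± 0.29), C26 (-1.30 ± 0.29) and LLC (-1.07 ± 0.29) (adjusted p = 0.0466, 0.0111 and 0.0464), and was -0.70 ± 0.29 in KPC. Itga7, a laminin receptor of muscle, rose for the mean (0.63 ± 0.12).

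Cartilage genes were few. Of 22 listed, 6 were measured, 3 fell and 2 rose for the mean, where 13.8% of all genes fell and 27.3% rose. In C26 3 of the 6 fell, where 5.12% of all genes did, and 2 rose, where 23.2% did, with a list median of -0.06. Among those that fell in C26 were Col9a1 (-3.48 ± 0.60, adjusted p = 0.00459) and Col11a2 (-2.07 ± 0.44, adjusted p = 0.00955), both collagens of cartilage. The list did not fall as a whole there: its summed level was 383 and 291 CPM in C26 cachectic muscle against 246 and 243 in C26 controls. Col9a1 was 0.26 in KPP, 0.37 in KPC and -1.19 in LLC, and passed in none of these. The member Prg4 rose in C26. Of 7 chondrocyte markers only Col9a1 was measured, with 2 and 2 reads in C26 cachectic muscle (0.0509 and 0.0668 CPM) against 23 and 36 reads in C26 controls (0.588 and 1.08 CPM), so that its fitted change there depends on the 0.5 added to each count. Its highest level in the 16 libraries was 3.13 CPM. The other 6, among them Acan and Col2a1, had no row and were not analysed here, nor were 6 of 6 osteoblast markers.

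**Figure D4:**
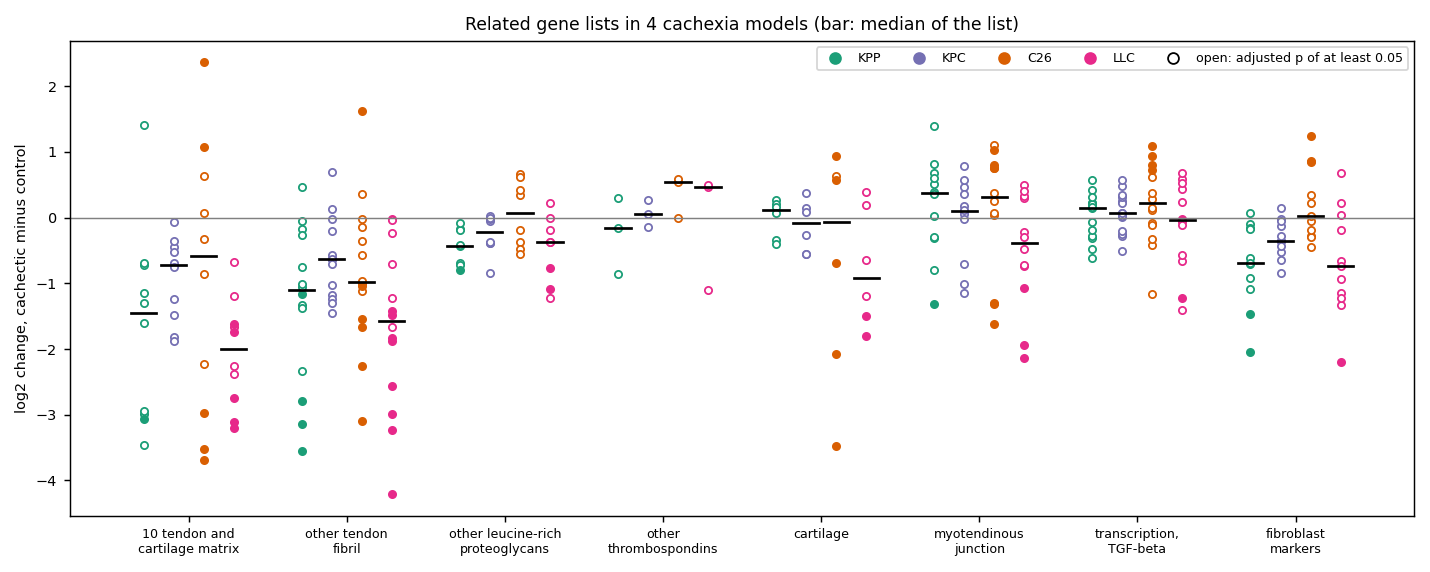
Log2 change (cachectic minus control, y axis) of each gene of the 10 members, 6 related lists and fibroblast markers (x axis) in the 4 models, with a bar at the median of the list; filled points passed an adjusted p of 0.05. The other tendon fibril genes lie low beside the members, with medians of -1.11 in KPP, -0.63 in KPC, -0.99 in C26 and -1.57 in LLC.

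Markers of fibroblasts and fibro-adipogenic progenitors, which also make matrix, were counted beside the members. Of the 11, all measured, 5 fell and 1 rose for the mean, where 13.8% of all genes fell and 27.3% rose. Their medians were -0.70 in KPP, -0.35 in KPC, 0.02 in C26 and -0.73 in LLC. Their summed level was 831 and 563 CPM in KPP cachectic muscle against 825 and 1101 CPM in KPP controls, and 1147 and 979 CPM in KPC cachectic muscle against 1278 and 1192 CPM in KPC controls. In C26 it was 1512 and 1544 CPM in cachectic muscle against 1207.5 and 1544 CPM in controls, and in LLC 712 and 1096 CPM in cachectic muscle against 1057 and 857 CPM in controls. The summed levels overlapped between cachectic and control muscle in KPP, C26 and LLC, and not in KPC. In single models 2 of the 11 markers fell in KPP, where 1.07% of all genes did, and 1 in LLC, where 3.66% did. In C26 0 fell and 2 rose. That count is not above the share of all genes (23.2%), so nothing is read from it. Thy1 fell in KPP (-2.05 ± 0.41) and LLC (-2.20 ± 0.41), and the 2 that rose in C26 were Ly6a (1.25 ± 0.23) and Pdgfra (0.86 ± 0.24). The part of these cells in the member values was not tested. Macrophage markers rose for 6 of 7 in C26 and 1 in LLC, and erythroid markers for 5 of 5 in LLC and 3 in C26. Endothelial markers rose for 3 of 6 in C26 and 1 in LLC, adipocyte markers for 1 of 4 in each of these models, and pericyte and smooth muscle markers for 1 of 5 in C26. In C26 23.2% of all genes rose and in LLC 3.42%, so the adipocyte and pericyte counts in C26 are near that share and nothing is read from them. None of these lists had a member that fell in a single model, and 0 of 5 Schwann markers passed in any single model. Of 4 slow fibre markers, 1 rose in KPP, where 0.707% of all genes rose, and 1 fell in C26, where 5.12% fell. Summed slow fibre levels were 380 CPM in KPP cachectic 1, 59.1 in KPP cachectic 2 and 50.2 and 56.6 in KPP controls. Fast fibre markers fell for 3 of 11 in C26 (5.12% of all genes) and 2 of 11 in LLC (3.66%).

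Upstream sequences are shown for 3 members that fell together and for Cilp, which did not, so that a reader can set them side by side. RefSeq promoter windows (GRCm38.p6) matched 7 of the 10 members. Each was searched over the 250 bases before the RefSeq start for the E-box CANNTG, the kind of site that basic helix-loop-helix factors such as scleraxis bind (the motif is the same on both strands). It was found in 5 of 7 members (71.4%), beside 66.2% of all 32851 promoters and 57.5% of the 11425 promoters of listed genes. Chad, Cilp2, Fmod and Thbs4 held 1 each, Cilp held 3, and Tnmd and Kera held 0 in this window. Capitals mark the E-boxes below, and bases that lie inside the annotated gene are left off.
Tnmd, chrX:133850758-133850979, plus strand: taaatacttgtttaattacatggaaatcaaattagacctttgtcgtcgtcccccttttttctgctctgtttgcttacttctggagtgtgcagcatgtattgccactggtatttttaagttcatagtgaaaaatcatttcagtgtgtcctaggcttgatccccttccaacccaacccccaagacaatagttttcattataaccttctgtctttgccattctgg
Chad, chr11:94564797-94565046, plus strand: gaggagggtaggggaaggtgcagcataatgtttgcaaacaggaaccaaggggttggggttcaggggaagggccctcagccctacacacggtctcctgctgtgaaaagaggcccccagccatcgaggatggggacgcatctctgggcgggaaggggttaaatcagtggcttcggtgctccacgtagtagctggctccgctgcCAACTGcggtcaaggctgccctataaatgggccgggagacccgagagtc
Fmod, chr1:134037004-134037253, plus strand: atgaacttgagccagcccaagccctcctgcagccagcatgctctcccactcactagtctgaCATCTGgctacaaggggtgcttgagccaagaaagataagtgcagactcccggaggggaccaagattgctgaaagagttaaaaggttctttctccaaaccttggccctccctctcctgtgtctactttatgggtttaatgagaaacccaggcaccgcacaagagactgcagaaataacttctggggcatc
Cilp, chr9:65264930-65265179, plus strand: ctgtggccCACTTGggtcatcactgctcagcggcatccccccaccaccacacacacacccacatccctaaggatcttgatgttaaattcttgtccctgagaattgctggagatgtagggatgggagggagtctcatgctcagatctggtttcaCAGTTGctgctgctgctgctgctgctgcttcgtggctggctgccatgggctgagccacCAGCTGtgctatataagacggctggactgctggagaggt
The Chad motif begins 49 bases before the start, that of Fmod 189 bases before it, and those of Cilp 242, 97 and 39 bases before it. These matches describe the letters of the windows only.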

How the data were processed

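The deposited data are 1 table of log2 values by gene for the 16 libraries. The submitters' processing notes name the GRCm38 build, featureCounts 1.4.5 and limma. The name given to the deposited values holds Tophat, an aligner, and Voom. Nothing used here names the annotation, strand setting or filter of that processing. Raising 2 to each value gave whole reads for 100% of values (tolerance 1e-04), so the values are log2 CPM, scaled to library totals alone, with an offset of 0.5 reads per gene and 1 per total, which understates folds at low read numbers. Columns were matched by the number in each sample's description, and symbols by Ensembl ID (31 of 12021 had none). One limma fit (limma 3.58.1, R 4.3.3; group means, trended prior, two-sided) gave each model's change, their mean, an F test of differences between models and the 6 differences between pairs. A filter (log2 of at least 0 in 2 libraries) removed no gene. Coordinates and exon lengths are from GENCODE M21 (GRCm38). The code was tested on simulated data. The members and lists were chosen with earlier results of these data known. The text names all 10 members, up to 4 called genes (otherwise 2) per list, the 8 genes most like the members and the 2 most like each; marker lists are given mostly as counts. Alternatives were quantile normalization, median centring, log2(CPM + 1), no or a stricter filter, no trend, a robust prior, voom weights, a replicate block, single models, another threshold, and leaving out a library or a model.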

Additional observations from a re-analysis of the deposited data

Results flagged for a closer look

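The change of Prg4 differed between models in tests that did not hold under every setting. KPP minus C26 was -3.05 on the log2 scale (SE 0.53, adjusted p = 0.0347). Both KPP cachectic libraries were below both KPP controls, as for 29.7% of all genes. Both C26 cachectic libraries were above both C26 controls, as for 59.6% of all genes. C26 minus LLC was 3.56 (SE 0.53, adjusted p = 0.0245). Both LLC cachectic libraries were below both LLC controls, as for 23.6% of all genes. The 2 differences come from a test of the difference itself over all 12021 genes, where 0.299% and 0.116% of genes passed. Model and strain cannot be told apart in either comparison. Both differences missed the threshold after median centring (adjusted p = 0.066 for KPP minus C26 and 0.0609 for C26 minus LLC) and in 10 of the 16 fits that leave out 1 library, and the F test over the 4 models did not pass for Prg4 (adjusted p = 0.0599).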

How the results depend on the processing

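Of 1412 values of 52 results on single members (changes, and the 2 differences of Prg4) under the alternatives, 1233 kept direction and side of the threshold, 100 lost the call, 65 gained one and 14 changed sign. The sign changes were in Prg4 and Scx. Prg4 in KPC ran from -0.50 to 0.38 and for the mean from -0.018 to 0.23 with 1 library left out, and was -0.65 for the mean without C26. Scx in C26 was -0.18 after quantile normalization, -0.17 after median centring and -0.69 to 0.82 with 1 library left out; in KPC it was -0.90 to 0.17 with 1 library left out, and for the mean -0.34 to 0.033, and 0.37 without LLC. Without KPC cachectic 2 and LLC cachectic 1 (chosen after the data were seen) Scx was 0.17 in KPC and 0.037 for the mean.

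Members called in KPP, 1 as reported, were 7 at an adjusted p under 0.10, 3 with log2(CPM + 1), 0 without the trend, with the robust prior or with voom weights, 6 with only the KPP libraries and 8 without the 2 libraries named above. In KPC, 0 became 5 without those 2 libraries, where 21.7% of all genes were called. In C26, 5 became 3 under the stricter filter (mean log2 of at least 2, which leaves 6 of 10 members) and 8 with only the C26 libraries. In LLC, 5 became 9 at 0.10, 2 under the stricter filter, 0 with only the LLC libraries and 3 without the 2 libraries. For the mean, 7 became 4 under the stricter filter. For the F test, 0 (4 of 10 at an unadjusted p under 0.05) became 1 at 0.10, 1 with log2(CPM + 1) and 4 without the 2 libraries. For pairs of models, 2 became 4 at 0.10, 0 after centring and 7 without the 2 libraries. With 1 library left out the counts ran from 0 to 6 in KPP, 0 to 2 in KPC, 1 to 6 in C26, 0 to 10 in LLC, 6 to 7 for the mean, 0 to 5 for the F test and 0 to 12 for pairs. The counts for pairs are of differences that passed, over 6 pairs of models, so a gene can count more than once. The 2 as reported were both of Prg4. Calls over all genes, 214 in KPP as reported, were 236 with log2(CPM + 1), 184 with the robust prior and 172 with voom weights. Under the stricter filter, which also tests fewer genes, they were 3050 in C26, 710 in LLC and 4251 for the mean. The F test called 19 genes with log2(CPM + 1). Settings in which the counts over all genes moved further are given below. Why the counts moved was not tested.

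The labels share replicate numbers across groups, but nothing says that these mark pairs: same-numbered deviations correlated at -0.04 to 0.09 across genes. A replicate block changed no member call (KPP 1, KPC 0, C26 5, LLC 5, mean 7, pairs 2). Counts over all genes, which for pairs are again of differences that passed, also moved by more than 1.5 times. KPP had 214, against 94 without the trend, 887 at 0.10, 1124 with only its 4 libraries and 2207 without the 2 libraries; KPC had 0, against 2 with log2(CPM + 1), 1 without the trend, with the robust prior or with voom weights, and 2614 without the 2 libraries. C26 had 3409, against 1952 after centring, 2052 after quantile normalization, 5152 with only its libraries and 5832 without the 2 libraries. LLC had 851, against 0 with only its libraries and 2106 at 0.10, and the mean 4938, against 2552 without C26. The F test had 14, against 8 under the stricter filter, 52 at 0.10 and 1782 without the 2 libraries, and pairs of models 64, against 25 after centring, 98 with log2(CPM + 1), 503 at 0.10 and 4157 without the 2 libraries. With 1 library left out they ran from 8 to 1042 in KPP, 0 to 949 in KPC, 191 to 4795 in C26, 3 to 3711 in LLC, 3892 to 6210 for the mean, 0 to 1404 for the F test and 5 to 3417 for pairs.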
